A study of Mus musculus with 4 samples.

Results

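ILC2s, the group 2 innate lymphoid cells, live in tissues, lack antigen receptors and make type 2 cytokines. The 10 genes described here encode chemokine receptors that guide lymphocytes and other leukocytes into and within tissues. They are Ccr1, Ccr2, Ccr4, Ccr7, Ccr8, Ccr9, Cxcr4, Cxcr6, Xcr1 and Ackr3, chosen by symbol, and all 10 were found among the 22083 genes of the deposited table. The study compared RNA of ILC2s sorted out of small intestinal lamina propria (SI-ILC2s) with RNA of ILC2s from mesenteric white adipose tissue (WAT-ILC2s). All mice were wild-type C57BL/6 animals aged 9 weeks, and each tissue had 2 libraries, called replicate 1 and replicate 2. Values are RPKM, reads per kilobase of gene scaled to sequencing depth, in the authors' deposited table. The labels name neither the sort markers nor the mice behind each replicate, and a p-value here measures the spread between these libraries alone, which may be technical.

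Chemokine receptors are G protein-coupled receptors with 7 membrane-spanning helices. On binding a chemokine, most of them activate inhibitory G proteins, whose beta-gamma subunits switch on phosphoinositide 3-kinase gamma and the small GTPases that polarise the cell and activate its integrins. Receptor kinases and arrestins then silence the receptor and take it inside. Ackr3 is an atypical receptor that binds CXCL12, the ligand of CXCR4, and signals through arrestins without activating G proteins. In the gut, CCR9 and its ligand CCL25 are known for drawing lymphocytes to the small intestine.

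Of the 10 genes, 7 had at least 1 RPKM in at least 2 libraries and were tested, and 3 (Ccr1, Ccr7 and Ackr3) fell below this filter. Of the 7, 4 were higher in SI-ILC2s (Ccr8, Ccr9, Ccr4 and Cxcr6) and 3 were higher in WAT-ILC2s (Ccr2, Cxcr4 and Xcr1). The test was limma on log2(RPKM + 1) over 8230 genes, two-sided, with a Benjamini-Hochberg adjusted p below 0.05. Among all tested genes 17.9% passed with the higher level in SI-ILC2s (1470 genes), 29.6% with the higher level in WAT-ILC2s (2436), and 47.5% passed in either direction; median-of-ratios scaling gave a split of 1956 to 1817, and equal column sums 1125 to 2891. The libraries of the tissues did not overlap for any of the 7 (4 higher in SI-ILC2s and 3 lower). Among all tested genes, 29.8% did not overlap and were higher in SI-ILC2s, 45.9% did so with the higher level in WAT-ILC2s, and 75.7% did not overlap in either direction. Ccr2 passed the filter through WAT-ILC2s alone. All changes below are SI-ILC2s less WAT-ILC2s in log2(RPKM + 1), and their median over all tested genes was -0.15. With median-of-ratios scaling this median was 0.0015 and the changes of the 7 genes were 2.49 (Ccr8), 1.38 (Ccr9), 0.83 (Ccr4), 0.82 (Cxcr6), -0.56 (Xcr1), -1.29 (Cxcr4) and -4.87 (Ccr2). For 1 gene, exactly permuting the labels of 2 and 2 libraries gives no p under 0.333. An effect of isolating cells from each tissue cannot be told apart from a difference of the ILC2s, and in bulk RNA fewer cells with a transcript cannot be told apart from less transcript per cell.

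**Figure D1:**
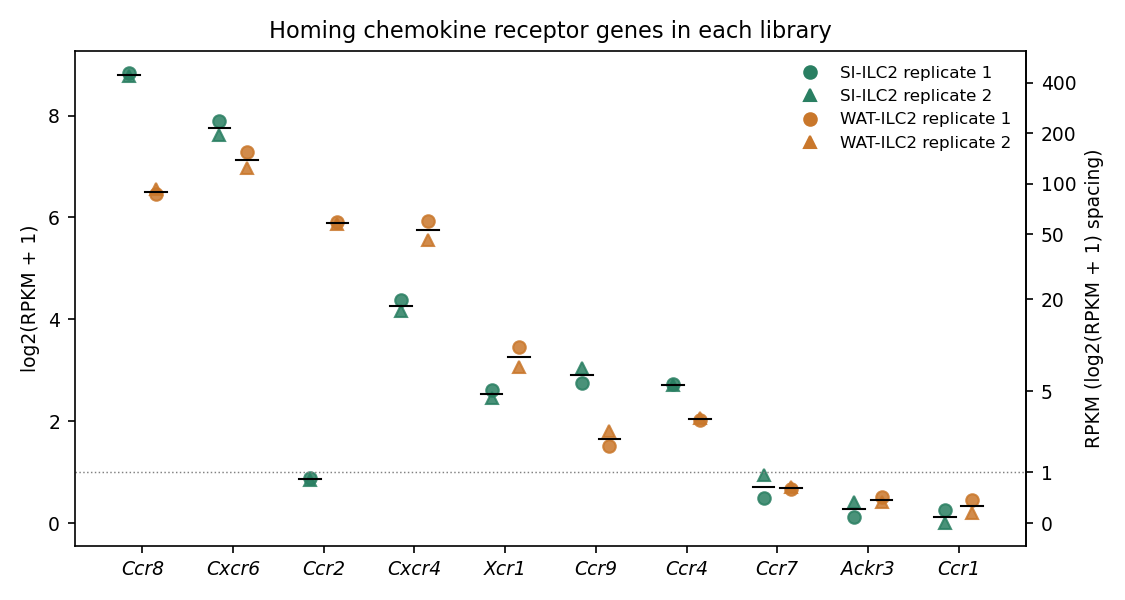
Levels of the 10 receptor genes in each of the 4 libraries, as log2(RPKM + 1) on the left axis and the matching RPKM on the right axis. Points are libraries, short black lines are the means of 2 libraries and the dotted line marks 1 RPKM; Ccr8 and Cxcr6 lie highest, Ccr2 is near 1 RPKM in SI-ILC2s and above 50 in WAT-ILC2s, and Ccr7, Ackr3 and Ccr1 lie below 1 in every library.

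The depth implied by the value steps of single-exon genes was 55300000 to 75900000 reads per library. Markers of the sorted lineage were present in all libraries, led by the transcription factor gene Gata3 (means of 366 and 368 RPKM, SI-ILC2s first) and Areg, the amphiregulin gene (210 and 220). The ILC2 list of 13 genes summed to 1475 to 1516 RPKM in SI-ILC2s and 1172 to 1272 RPKM in WAT-ILC2s, with 5 genes called higher in the former and 4 in the latter. Lists for other cells summed lower. The monocyte and macrophage list (12 genes) summed to 4.33 to 5.63 RPKM in SI-ILC2s and 9.31 to 12.1 in WAT-ILC2s, the dendritic cell list (11) to 11.95 to 15.7 and 14.5 to 20.7, the T cell list (8) to 7.78 to 9.67 and 14.0 to 24.9, and the B and plasma cell list (7) to 19.0 to 24.9 and 2.73 to 3.15. The endothelial list (8) summed to 4.88 to 7.43 and 6.24 to 9.92 RPKM, the list of fibroblasts and mesothelium (10) to 1.37 to 1.68 and 5.18 to 11.3, granulocytes and mast cells (13) to 0.899 to 0.978 and 2.32 to 2.77, and NK cells and ILC1s (7) to 1.604 to 1.75 and 0.700 to 0.805. Intestinal epithelium (8) summed to 5.56 to 11.3 and 8.53 to 9.08 RPKM and adipocytes (6) to 0.260 to 0.610 and 0.685 to 0.925. The ILC3 list (8) summed to 62.3 to 78.4 and 133 to 187 RPKM, most of it from Tmem176a and Tmem176b. No gene of these lists was at 0 in all 4 libraries.

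The bases before the start of 3 receptor genes with a called change beyond 1 log2 unit are shown, so that the windows next to their starts can be compared with the motif counts. They come from RefSeq (GRCm38.p6), end before the first exon base annotated in GENCODE, and are written 5′ to 3′ on the strand of the gene. They are chr9:120091883-120092113 (Ccr8, plus), chr9:123766961-123767168 (Ccr9, plus, the RefSeq start inside the longer GENCODE gene) and chr1:128592300-128592549 (Cxcr4, minus). Ccr2 also had a called change beyond 1 log2 unit but is not shown. Only 17 bases of its window lie before the first exon base annotated in GENCODE. Capitals mark matches on either strand to GATAA, the core bound by GATA factors such as GATA3, or TATAAA, the TATA box.
Ccr8: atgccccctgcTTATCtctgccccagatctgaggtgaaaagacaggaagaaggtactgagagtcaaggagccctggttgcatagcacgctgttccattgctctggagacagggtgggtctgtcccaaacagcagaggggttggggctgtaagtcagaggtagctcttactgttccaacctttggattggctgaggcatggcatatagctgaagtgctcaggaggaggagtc
Ccr9: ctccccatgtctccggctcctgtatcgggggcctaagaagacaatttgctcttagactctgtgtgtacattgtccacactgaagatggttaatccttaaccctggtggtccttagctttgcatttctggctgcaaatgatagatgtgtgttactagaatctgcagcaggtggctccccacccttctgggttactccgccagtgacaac
Cxcr4: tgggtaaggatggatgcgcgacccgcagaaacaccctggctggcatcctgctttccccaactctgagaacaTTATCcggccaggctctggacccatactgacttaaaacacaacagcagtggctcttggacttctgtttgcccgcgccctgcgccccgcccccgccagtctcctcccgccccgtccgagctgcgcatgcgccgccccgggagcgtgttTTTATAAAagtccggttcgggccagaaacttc
In Ccr8 and Cxcr4 a GATAA match on the opposite strand begins 239 and 179 bases before the RefSeq start, and in Cxcr4 a pair of overlapping TATAAA matches, 1 on each strand, begins 32 and 30 bases before it. Within 250 bases before the start, GATAA occurred in 4 of 9 receptor genes with an entry (Ccr2, Ccr8, Cxcr4 and Xcr1), in both directions of change, and in 22.6% of 32851 promoters of the table. The Ccr2 match begins 97 bases before the RefSeq start, downstream of the first exon base annotated in GENCODE. TATAAA occurred in 3 of 9 and 12.4% of promoters, and TGTGGT, a RUNX core, in 3 of 9 (Ccr1, Cxcr6 and Ackr3) and 14.1%. AGGTCA, a half-site of nuclear receptors, occurred in 0 of 9 and 14.0%. A match is a description of letters, and its absence says only that these letters are not in this window.

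Ccr8 encodes the receptor for CCL1 and CCL8, found on type 2 T cells, regulatory T cells and ILC2s. It had 454 and 436 RPKM in the SI-ILC2 libraries and 87.0 and 92.7 RPKM in the WAT-ILC2 libraries. The SI-ILC2 libraries were thus high and close together, with no overlap with WAT-ILC2s. The means were 445 ± 13.0 and 89.8 ± 3.99 RPKM (SD, n = 2 each), 4.95 times as high in SI-ILC2s, and the change was 2.30 ± 0.16 (SE, limma adjusted p = 0.0003). By mean RPKM, Ccr8 ranked number 44 among SI-ILC2 transcripts and number 228 among those of WAT-ILC2s, of 22083 genes.

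Cxcr6 encodes the receptor for CXCL16, a membrane-bound chemokine linked to the retention of innate lymphocytes in tissues. Its values were 237 and 196 RPKM in SI-ILC2s, against 156 and 124 RPKM in WAT-ILC2s. The tissues did not overlap, but the gap between them was about as wide as the gaps between replicates. The mean was 1.55 times as high in SI-ILC2s and the change was 0.63 ± 0.19 (SE, limma adjusted p = 0.037). Cxcr6 missed the threshold without SI-ILC2 replicate 1 (adjusted p = 0.26), SI-ILC2 replicate 2 (0.095) or WAT-ILC2 replicate 2 (0.089), after quantile normalization (0.06) or rescaling to equal column sums (0.066), and with no filter (0.13).

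Ccr9, the gut-homing receptor for CCL25, was low beside these. It had 1.86 and 2.49 RPKM in WAT-ILC2s and 5.75 and 7.25 RPKM in SI-ILC2s, so the tissues did not overlap. The mean was 2.98 times as high in SI-ILC2s, a change of 1.24 ± 0.18 (SE, limma adjusted p = 0.0027). The list of B and plasma cells, which include cells with Ccr9, had 2 of 2 tested genes higher in SI-ILC2s. They were Cd79b, a B cell receptor subunit gene (17.3 and 13.1 RPKM in SI-ILC2s, against 2.59 and 2.36 RPKM in WAT-ILC2s, change 2.21, adjusted p = 0.00043), and Igj. The defining B cell gene Ms4a1 stayed between 0.02 and 0.05 RPKM, while Igj, the immunoglobulin joining chain gene of plasma cells, was at 7.02 and 5.51 RPKM in the SI-ILC2 libraries and 0.01 and 0 RPKM in the WAT-ILC2 libraries. The part of these cells in the Ccr9 values was not tested.

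Ccr4 encodes the receptor for CCL17 and CCL22, shared by skin-homing and type 2 T cells. Its replicates were the closest of the 4 genes higher in SI-ILC2s, at 5.61 and 5.51 RPKM in SI-ILC2s, against 3.06 and 3.17 RPKM in WAT-ILC2s. The mean was 1.78 times as high in SI-ILC2s, a change of 0.67 ± 0.14 (SE, limma adjusted p = 0.009), which was lost without SI-ILC2 replicate 1 (adjusted p = 0.054). The T cell list went the other way, with 2 of 3 tested genes higher in WAT-ILC2s. Foxp3, the regulatory T cell factor, was at 1.70 and 1.53 RPKM in WAT-ILC2s and 1.09 and 0.96 RPKM in SI-ILC2s.

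Ccr2, the receptor for CCL2 that brings monocytes out of the bone marrow, had 0.847 and 0.811 RPKM in the SI-ILC2 libraries and 59.4 and 57.2 RPKM in the WAT-ILC2 libraries. The replicates of each tissue were almost equal and the tissues lay far apart. The WAT-ILC2 mean was 70.3 times the SI-ILC2 mean, and the change of -5.02 ± 0.13 (SE, limma adjusted p = 3.9e-05) was the lowest of all tested genes. The SI-ILC2 values stood on about 64.3 and 48.3 reads per kilobase at the depths above. The monocyte and macrophage list had 1 of 3 tested genes higher in WAT-ILC2s, Lyz2, at 3.53 and 5.50 RPKM there and 0.63 and 0.33 RPKM in SI-ILC2s. The defining gene Csf1r was at 0.53 and 0.54 RPKM in SI-ILC2s, against 0.53 and 0.42 RPKM in WAT-ILC2s. Of the genes of the list below the filter, Emr1 (0.087 and 0.032 against 0.36 and 0.69 RPKM, SI-ILC2s first), C1qc (0.12 and 0.028 against 0.37 and 0.40 RPKM) and Ly6c2 (0.13 and 0.41 against 0.91 and 0.44 RPKM) lay higher in WAT-ILC2s without overlap, and Fcgr1 lay lower without overlap. The part of these cells in the Ccr2 values was not tested.

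Cxcr4 encodes the receptor for CXCL12, which holds many leukocytes in bone marrow and tissue. It had 59.7 and 46.3 RPKM in WAT-ILC2s and 19.8 and 16.9 RPKM in SI-ILC2s. WAT-ILC2 libraries were all above SI-ILC2 libraries, with a mean 2.89 times as high and a change of -1.48 ± 0.18 (SE, limma adjusted p = 0.0015).

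Xcr1 encodes the receptor for XCL1 and is best known as a marker of cross-presenting dendritic cells. It had 5.11 and 4.47 RPKM in the SI-ILC2 libraries and 9.92 and 7.40 RPKM in the WAT-ILC2 libraries, with no overlap. The WAT-ILC2 mean was 1.81 times as high and the change was -0.73 ± 0.18 (SE, limma adjusted p = 0.017), which was lost without SI-ILC2 replicate 2 (adjusted p = 0.077) and with no filter (0.076). The dendritic cell genes Clec9a, Batf3 and Flt3 reached at most 0.06, 0.15 and 0.08 RPKM in any library, while Snx22 of the same list had 14.0 and 10.1 RPKM in SI-ILC2s and 17.5 and 9.85 RPKM in WAT-ILC2s. Of that list, 1 of 2 tested genes, Zbtb46, was higher in WAT-ILC2s. Below the filter, Fscn1 of the list lay higher in WAT-ILC2s without overlap (0.041 and 0.063 against 0.40 and 1.14 RPKM, SI-ILC2s first). Itgax, Wdfy4 and Siglech did so too, at 0.084 RPKM or less in every library. The other genes of the list below the filter overlapped between the tissues. The part of dendritic cells in the Xcr1 values was not tested.

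The 3 genes below the filter were low in both tissues. Ccr7, the receptor that takes cells through lymph to lymph nodes, had 0.399 and 0.923 RPKM in SI-ILC2s, against 0.583 and 0.646 RPKM in WAT-ILC2s. Its SI-ILC2 libraries enclosed the WAT-ILC2 values. Ackr3 had 0.420 and 0.332 RPKM in WAT-ILC2s and 0.0901 and 0.333 RPKM in SI-ILC2s. Ccr1, a receptor for CCL3 and CCL5, was at 0.191 RPKM and listed at 0 in SI-ILC2s and had 0.369 and 0.151 RPKM in WAT-ILC2s. The tissues overlapped for all 3, and with no filter their adjusted p-values in limma were 0.97 (Ccr7), 0.41 (Ackr3) and 0.40 (Ccr1). Each stood on 55.0 reads per kilobase or fewer, so a difference of moderate size may not have been detectable at this depth.

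**Figure D2:**
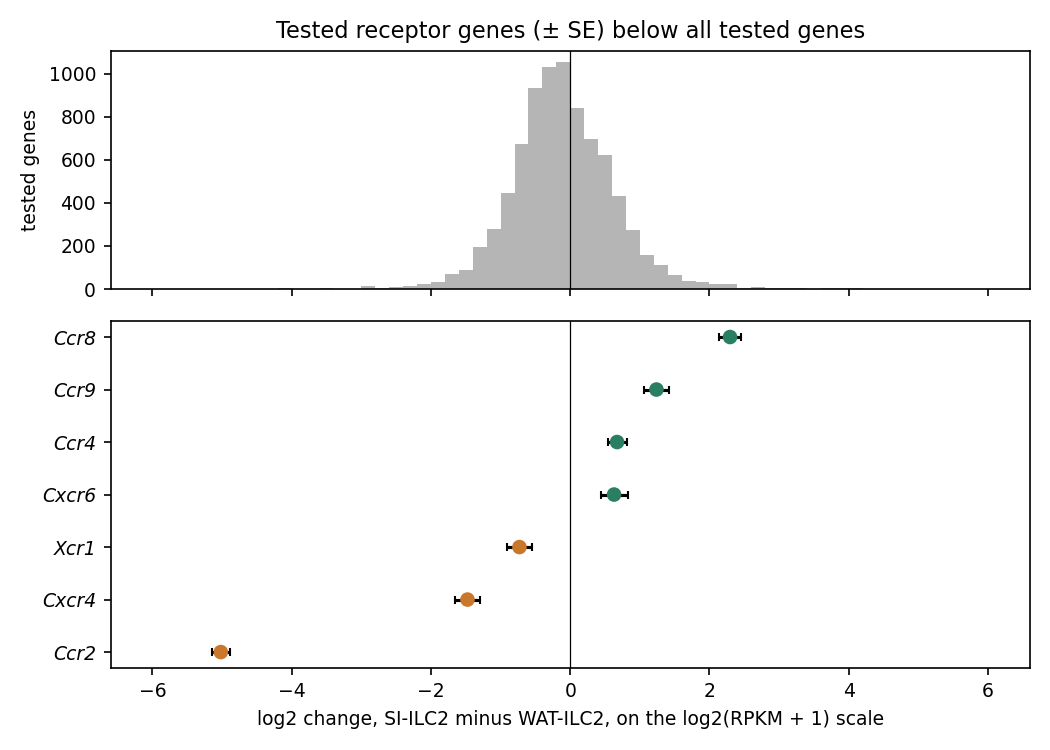
Changes of the 7 tested receptor genes (points, ± SE from limma) below a histogram of the changes of all 8230 tested genes, both on the log2(RPKM + 1) scale. Ccr2 lies at -5.02 at the far left of the distribution, Ccr8 at 2.30 on its right side, and Cxcr6, Ccr4 and Xcr1 lie between -0.73 and 0.67.

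The order of the levels differed between the tissues. In SI-ILC2s it was Ccr8, Cxcr6, Cxcr4, Ccr9, Ccr4, Xcr1, Ccr2, Ccr7, Ackr3 and Ccr1, and the libraries of neighbours overlapped for Ccr2 with Ccr7 and for Ackr3 with Ccr1. In WAT-ILC2s it was Cxcr6, Ccr8, Ccr2, Cxcr4, Xcr1, Ccr4, Ccr9, Ccr7, Ackr3 and Ccr1, with overlaps for Ccr2 with Cxcr4 and for Ackr3 with Ccr1. Ratios within a library do not depend on how that library was scaled. Like the order above and the family shares below, they do depend on the gene lengths behind the RPKM, which are not given. Ccr8 was at 1.92 and 2.22 times the level of Cxcr6 in the SI-ILC2 libraries and at 0.559 and 0.747 times in the WAT-ILC2 libraries. Ccr8 was at 536 and 537 times the level of Ccr2 in SI-ILC2s but 1.47 and 1.62 times its level in WAT-ILC2s. Cxcr4 was at 0.0835 and 0.0861 of the level of Cxcr6 in SI-ILC2s, compared with 0.384 and 0.374 in WAT-ILC2s. These ratios are a description of 2 libraries a tissue and carry no test.

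Within the chemokine receptor family (24 genes including the 10), the summed RPKM was 786 and 720 in SI-ILC2s, against 456 and 409 in the other tissue. Ccr8 and Cxcr6 together made up 87.9% and 87.7% of this sum in SI-ILC2s, compared with 53.2% and 52.9% in WAT-ILC2s. Ccr8 alone made up 57.8% and 60.5% in SI-ILC2s against 19.1% and 22.6% in WAT-ILC2s. Cxcr6 made up 30.1% and 27.2% in SI-ILC2s, compared with 34.1% and 30.3% in WAT-ILC2s. In WAT-ILC2s, Ccr2 took 13.0% and 14.0% and Cxcr4 13.1% and 11.3%, against 0.108% and 0.113% and 2.52% and 2.34% in SI-ILC2s. In each SI-ILC2 library 17 of the 24 genes were below 1 RPKM, and in each WAT-ILC2 library 14.

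**Figure D3:**
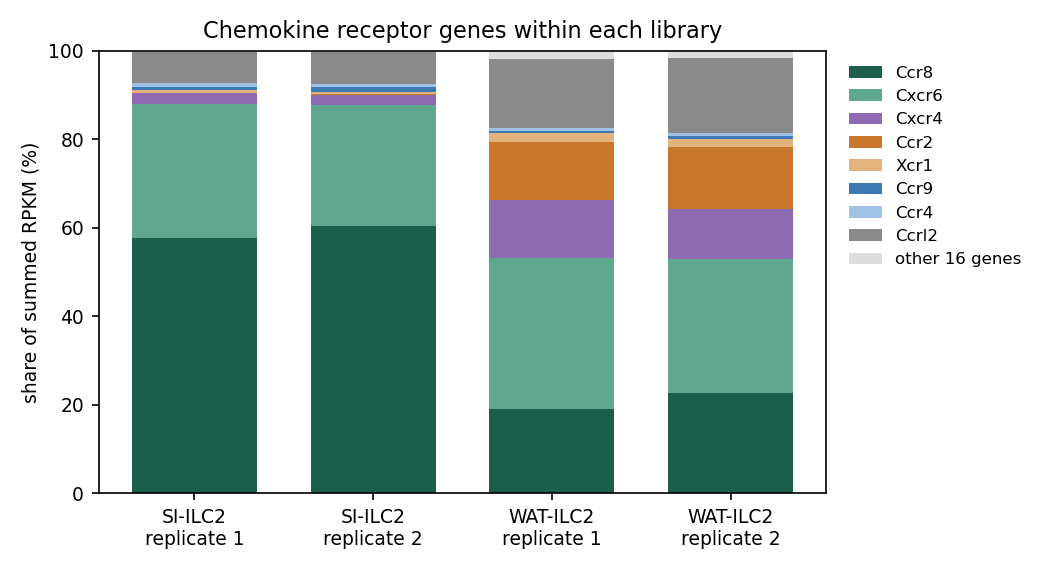
Share of each receptor gene in the summed RPKM of 24 chemokine receptor genes, as stacked bars for the 4 libraries. Ccr8 fills 57.8% and 60.5% of the SI-ILC2 bars and 19.1% and 22.6% of the WAT-ILC2 bars, where Ccr2, Cxcr4 and Ccrl2 are wider.

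Of the further chemokine receptor genes described here, Ackr1 was higher in WAT-ILC2s, where alone it passed the filter, and Ccrl2 did not pass the test. Ackr1, an atypical receptor of red cells and venular endothelium, had 0.0462 and 0.0735 RPKM in SI-ILC2s, against 2.35 and 1.596 RPKM in WAT-ILC2s (change -1.48, limma adjusted p = 0.00088), and 25.7% of its exon length is shared with Cadm3 on the same strand. Of the 8 endothelial genes, only Pecam1 was tested and it was higher in SI-ILC2s. The endothelial gene Emcn stood at 0.81 and 1.13 RPKM in WAT-ILC2s and 0.16 and 0.13 RPKM in SI-ILC2s. Cdh5, Kdr, Tek, Vwf and Flt1, also below the filter, lay higher in WAT-ILC2s without overlap as well, and Cldn5 overlapped. The part of endothelium in the Ackr1 values was not tested. Ccrl2, which binds the chemoattractant chemerin without signalling, was abundant in both tissues at 55.6 and 51.2 RPKM in the SI-ILC2 libraries and 70.9 and 69.0 RPKM in the WAT-ILC2 libraries. Its adjusted p was 0.064, and it passed with equal column sums (0.021) or quantile normalization (0.044). Ccr3, Ccr6, Ccr10, Cxcr3, Cxcr5 and Cx3cr1 did not reach the filter.

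Of the 10 genes, 7 lie on chromosome 9. Of these, 5 (Ccr9, Cxcr6, Xcr1, Ccr1 and Ccr2) lie, with Ccr1l1 and Ccr3, in a stretch from Ccr9 to Ccr2 of 435.1 kb, from 123678439 to 124113557 in GRCm38 (GENCODE M21). Along it, Ccr9 (plus strand, 123678439 to 123784330) and Cxcr6 (plus strand, 123806475 to 123811760) were higher in SI-ILC2s. Next to them, Xcr1 (minus strand, 123852315 to 123862029) was higher in WAT-ILC2s. Beyond the low genes Ccr1, Ccr1l1 and Ccr3 at the middle, Ccr2 (plus strand, 124101950 to 124113557) was higher in WAT-ILC2s. The low gene Ccr1l1 had 0.018 and 0.0459 RPKM in SI-ILC2s, against 0.382 and 0.5001 RPKM in WAT-ILC2s, while Ccr3 overlapped between the tissues. Fyco1, a vesicle transport gene on the minus strand whose intron holds Cxcr6, went the other way from Cxcr6, at 12.6 and 11.04 RPKM in WAT-ILC2s and 7.23 and 6.10 RPKM in SI-ILC2s (change -0.74, limma adjusted p = 0.0094). Cxcr6 and Fyco1 share no exon bases. Lztfl1, inside the annotated span of Ccr9, did not pass the test (change -0.25, adjusted p = 0.22). The remaining genes lie apart, with Ccr4 (minus strand, 114490316 to 114504916) and Ccr8 (plus strand, 120092114 to 120094906) elsewhere on chromosome 9, Cxcr4 (128588199 to 128592293, minus) and Ackr3 (90203980 to 90216751, plus) on chromosome 1, and Ccr7 (99144196 to 99155077, minus) on chromosome 11. Of the exon length of Ccr9, 18.8% overlaps a transcript without a gene symbol on the opposite strand. The sources used here do not give how reads shared by related genes, or by genes on opposite strands, were counted.

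**Figure D4:**
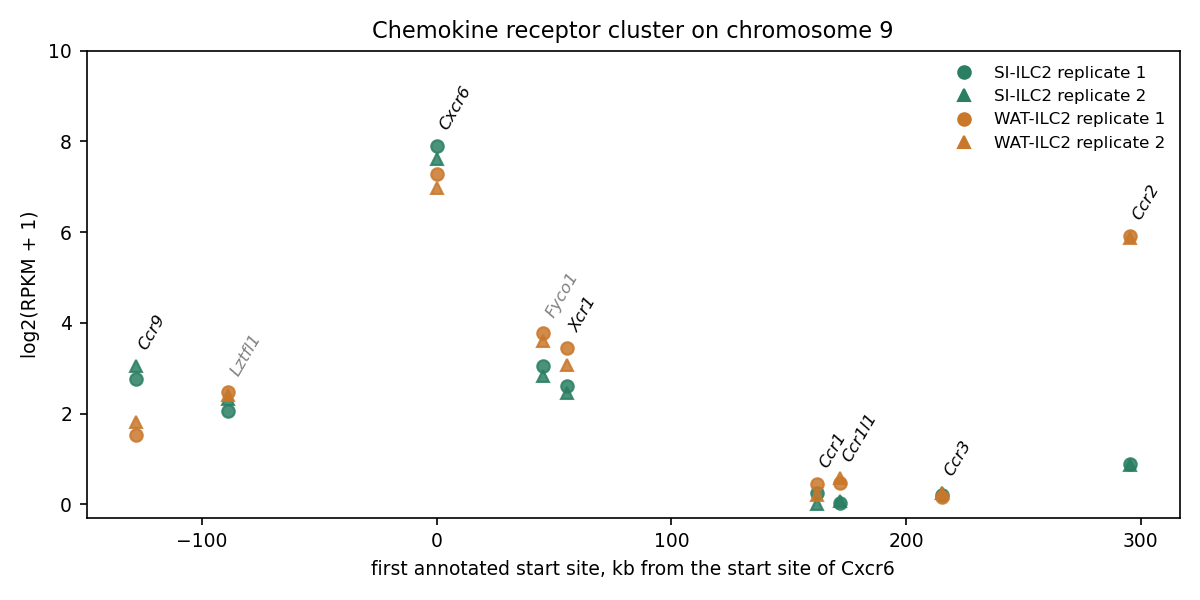
Levels in the 4 libraries of 7 chemokine receptor genes of the chromosome 9 stretch from Ccr9 to Ccr2 (black names) and the genes between them (grey names), as log2(RPKM + 1) against the distance of the first annotated start site from that of Cxcr6 in kb. SI-ILC2 points lie above WAT-ILC2 points for Ccr9 and Cxcr6 and below them for Xcr1, Ccr1l1 and Ccr2.

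The genes with the pattern most like that of Ccr8 over the 4 libraries, by distance on the log2(RPKM + 1) scale among tested genes, were H3f3b (distance 0.64), H2afz (0.65) and Bhlhe40 (0.77). H3f3b, for example, had means of 333 RPKM in SI-ILC2s, against 101 in WAT-ILC2s. For Ccr2 they were Anxa1 (1.099), S100a4 (1.33) and Sema4a (1.43), each farther away than any of the 3 for Ccr8. Anxa1 had means of 1.11 RPKM in SI-ILC2s, against 35.0 in WAT-ILC2s.

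Of 44 genes of signalling from chemokine receptors, 41 were tested. SI-ILC2s had the higher level of 6 and WAT-ILC2s of 14, while 21 missed the threshold, where 17.9% and 29.6% of all tested genes passed on these sides. The counts were near these shares, and the median change was -0.16, beside -0.15 for all tested genes. The WAT-ILC2 side held the genes of the catalytic subunit and a regulatory subunit of phosphoinositide 3-kinase gamma, Pik3cg (1.11 and 1.31 against 4.18 and 5.05 RPKM, SI-ILC2 libraries first) and Pik3r5 (1.70 and 2.08 against 6.75 and 7.29 RPKM). It also held Fermt3, which encodes the integrin activator kindlin-3 (18.3 and 23.6 against 57.6 and 69.6 RPKM), and Coro1a, an actin-binding protein of leukocytes (168 and 164 against 481 and 414 RPKM). Their changes were -1.35, -1.48, -1.56 and -1.42, with limma adjusted p-values of 0.0012, 0.00088, 0.0014 and 0.0016. Of the inhibitory G protein genes, Gnai2 was higher in WAT-ILC2s (37.7 and 35.6 against 64.0 and 68.9 RPKM, adjusted p = 0.0045) while Gnai3 stood at 109 and 118 against 81.5 and 92.5 RPKM and did not pass (adjusted p = 0.088). The SI-ILC2 side was led by Rapgef2, an exchange factor of the integrin-activating GTPase Rap1 (13.1 and 13.8 against 3.33 and 2.95 RPKM, change 1.80, adjusted p = 0.00043), and Gnaq, a G protein alpha subunit (3.78 and 4.25 against 1.02 and 0.823 RPKM, change 1.38, adjusted p = 0.00094), which passed the filter through SI-ILC2s. Jak2 and Stk4 were also higher in SI-ILC2s (adjusted p = 0.021 and 0.012), and without SI-ILC2 replicate 2 they missed the threshold (0.13 and 0.084) and the SI-ILC2 count fell from 6 to 2, as it did with no filter.

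Of 21 genes that desensitise or traffic chemokine receptors, 16 were tested, with 5 calls on the SI-ILC2 side and 5 on the WAT-ILC2 side, beside 17.9% and 29.6% of all tested genes. These counts were 3 and 5 with equal column sums, 3 and 3 without SI-ILC2 replicate 2, 4 and 3 without SI-ILC2 replicate 1, and 3 and 2 with no filter. The median change was -0.08, beside -0.15 for all tested genes. Regulators of G protein signalling (RGS proteins), which shorten the signal, were split between the tissues. Rgs1 had 229 and 252 RPKM in the SI-ILC2 libraries and 28.6 and 35.8 RPKM in the WAT-ILC2 libraries (change 2.87 ± 0.17, SE, limma adjusted p = 0.00024), and, with SI-ILC2 libraries first as in the rest of this list, Rgs10 had 9.28 and 8.22 against 3.84 and 1.99 RPKM (change 1.36, adjusted p = 0.0056). Rgs14 went the other way, at 3.61 and 4.13 against 13.3 and 14.4 RPKM (change -1.61, adjusted p = 0.00061). Rgs2 stood highest of the RGS genes listed, at 508 and 452 RPKM in SI-ILC2s, against 423 and 354 RPKM in WAT-ILC2s, and did not pass (adjusted p = 0.23). The 3 tested receptor kinase genes were higher in WAT-ILC2s, with Adrbk1 (the gene of GRK2) at 18.9 and 25.7 against 43.1 and 57.9 RPKM, Grk6 at 3.94 and 5.63 against 8.70 and 11.1 RPKM, and Grk5 at 3.67 and 3.04 against 6.22 and 6.33 RPKM. Their adjusted p-values were 0.0065, 0.011 and 0.0083, that of Grk6 was 0.059 without SI-ILC2 replicate 1 and that of Grk5 was 0.057 without SI-ILC2 replicate 2. Below the filter, Adrbk2 (the gene of GRK3) lay higher in SI-ILC2s, at 0.447 and 0.410 against 0.0992 and 0.0792 RPKM. Grk4, also below it, lay higher in WAT-ILC2s, at 0.179 and 0.217 against 0.393 and 0.441 RPKM. Hgs, a sorting protein that sends receptors such as CXCR4 to lysosomes, was at 1.73 and 2.21 RPKM in WAT-ILC2s and 5.50 and 8.47 RPKM in SI-ILC2s (change 1.41, adjusted p = 0.0033).

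Tyrosine sulfation of their outer amino termini strengthens the binding of chemokines to many of these receptors. Of 6 genes of this reaction, all tested, WAT-ILC2s had the higher level of 4 and 2 missed the threshold, beside 29.6% of all tested genes on the WAT-ILC2 side. The median change was -0.91, beside -0.15 for all tested genes, and of the 4 called genes Tpst1 and Papss2 reached 1 RPKM in both libraries only in WAT-ILC2s, so that they passed the filter through the tissue where they were high. The values that follow give SI-ILC2 libraries first. The 4 were Slc35b2, the Golgi transporter of the sulfate donor (10.1 and 9.49 against 35.1 and 31.7 RPKM, change -1.67, limma adjusted p = 0.00052), the sulfotransferase Tpst1 (0.559 and 0.765 against 2.36 and 3.21 RPKM, adjusted p = 0.0023), and the donor synthases Papss1 and Papss2 (adjusted p = 0.0036 and 0.014, the latter 0.073 without SI-ILC2 replicate 1). The more abundant sulfotransferase Tpst2 stood at 26.5 and 30.4 against 33.6 and 47.5 RPKM and did not pass (adjusted p = 0.088).

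**Figure D5:**
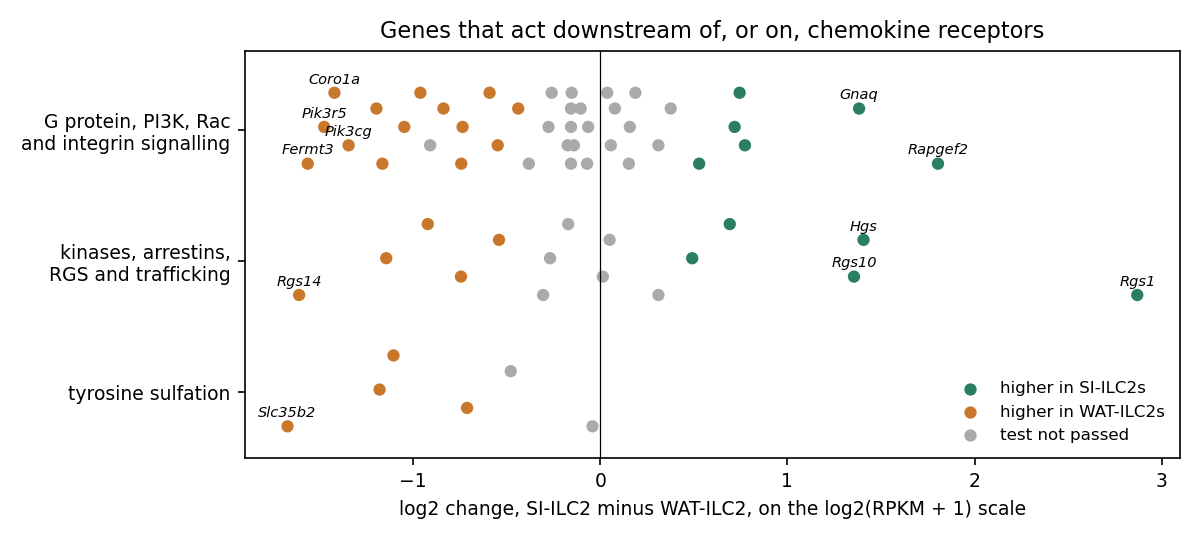
Change of each tested gene in 3 lists (rows) on the log2(RPKM + 1) scale, SI-ILC2 minus WAT-ILC2, with called genes in color and vertical position within a row only separating the points. Rgs1 lies farthest right at 2.87, and the 4 called genes of tyrosine sulfation all lie left of 0.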

How the data were processed

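The 4 libraries (2 SI-ILC2, 2 WAT-ILC2) were made of total RNA using a KAPA kit, per the labels. The authors deposited RPKM values in 1 table with a column per library. STAR 2.6.0, featureCounts 1.6.0 and GRCm38 (mm10) are named in the submitters' processing notes, while annotation, strand setting, filters and treatment of multi-mapped reads are not stated there. Genes with at least 1 RPKM in at least 2 libraries (8230 of 22083) were compared as log2(RPKM + 1) with limma 3.58.1 (R 4.3.3, variance trend, no covariate, all 4 libraries), Benjamini-Hochberg over all tested genes, threshold 0.05. The prior added 4.39 degrees of freedom to 2. Adding 1 before the logarithm understates changes of low genes.

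Depth was read from the steps of low values in 316 single-exon genes. The depth chosen turned 94.8% to 97.1% of these values, per library, into read numbers no more than 0.1 from an integer. At a depth fixed beforehand, 20% would do so by chance. The depth was instead the one with the largest share among those tried, and no chance share was computed for that choice. Reads per kilobase use that depth and cover counting error only. Of the read numbers within 0.1 of an integer, 65.65% to 73.37% per library were even. The reads may thus not all be independent, and the reason was not tested. The limma fit was tested on simulated data, and the depth reading was not. The receptor genes and all lists were chosen with earlier results of these data known. The naming rule took all 10 receptor genes, up to 4 called genes per list and direction by size of change, further receptor genes of at least 1 RPKM, the 3 genes nearest to Ccr8 and to Ccr2 in Euclidean distance (predicted genes left out), and the 2 highest genes of each marker list; the text gives examples. Gnai2, Gnai3, Rgs2, Tpst2, Fyco1, Lztfl1 and single marker genes were named outside that rule after their values were seen. The ligand genes Ccl1, Ccl2, Cxcl12, Ccl25 and Xcl1 and the further receptor genes below 1 RPKM were also named outside it. Of the list genes, 4 were found under an older symbol and 1 was not used here. Some genes of the lists are not reported here. Figures used matplotlib 3.10.9.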

Additional observations from a re-analysis of the deposited data

How the results depend on the processing

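The direction of the 7 tested receptor genes was the same under all alternatives run (another pseudocount, 3 other filters, 3 scalings, no variance trend, the replicate block and leaving out each library). The number of receptor genes higher in SI-ILC2s ranged from 2 to 4 when 1 library was left out, with Ccr4 and Cxcr6 lost without SI-ILC2 replicate 1, and the number higher in WAT-ILC2s from 2 to 3. Calls over all tested genes numbered 1470 on the SI-ILC2 side and 2436 on the WAT-ILC2 side, against 896 and 1349 with no filter, 899 and 1182 with at least 5 RPKM in 2 libraries, 1956 and 1817 after median-of-ratios scaling, 1772 and 1886 after quantile normalization, and 1125 and 2891 with equal column sums. Leaving out 1 library leaves a tissue with 1, whose spread is then taken from the other tissue. Without 1 library the WAT-ILC2 count ranged from 1492 (without SI-ILC2 replicate 1) to 2551. The further receptor, ligand and pathway lists held 12 and 25 calls, with 6 on the SI-ILC2 side with no filter, 8 and 28 with equal column sums, 7 to 12 on that side without 1 library (7 without SI-ILC2 replicate 2) and 16 on the WAT-ILC2 side at 5 RPKM. Fewer or more genes tested change these filtered counts by construction; the cause of the other shifts was not tested. With no filter Jak2, Stk4, Rab5a, Rgs10, Adrbk1, Grk6 and Papss2 lost their calls. With the replicate number as a block there were 2271 calls on the SI-ILC2 side and 3430 on the other, the 7 receptor genes passed as before, and Ccrl2 and Ccl1 passed as well (adjusted p = 0.00029 and 8.8e-06). Differences between replicates 1 and 2 correlated between the tissues (r = 0.572 across genes, which are not independent), but the labels do not say that a number marks a shared mouse or day.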

Other observations

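Of the chemokines that the receptors bind, 20 had values and 2 were tested. Cxcl16, the ligand of CXCR6, had 0.68 and 0.69 RPKM in WAT-ILC2s and was higher in SI-ILC2s (1.40 and 1.51 RPKM, change 0.54, limma adjusted p = 0.01). It passed the filter through SI-ILC2s alone and lost the call with no filter (0.064), and 18.3% of its exon length overlaps Zmynd15 on the opposite strand. Ccl1, the ligand of CCR8, was at 10.7 and 7.23 RPKM in the SI-ILC2 libraries and 6.61 and 4.45 RPKM in the WAT-ILC2 libraries and did not pass (adjusted p = 0.075), but did so after median-of-ratios scaling (0.042), without SI-ILC2 replicate 2 (0.037) and without WAT-ILC2 replicate 1 (0.00066). Ccl2 and Cxcl12, the ligands of CCR2 and CXCR4, were below 1 RPKM in all 4 libraries, as were Ccl25, the ligand of CCR9, and Xcl1, the ligand of XCR1.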
